A study of Mus musculus with 12 samples.

Results

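Elastic fibres give the lung its recoil. They have a core of crosslinked elastin laid down on a scaffold of microfibrils, which are long polymers of fibrillin with microfibril-associated glycoproteins along them. Fibulins and microfibril-associated protein 4 help to bring elastin to the microfibrils, and lysyl oxidase crosslinks the elastin monomers. Most elastin of the lung is made during alveolar development, and loss of elastic fibres in the alveolar wall is a known feature of smoke-related emphysema. The genes described here are 10 of the 27595 genes named on the array: Eln (elastin), Lox (lysyl oxidase), Fbn1 and Fbn2 (fibrillins), Mfap2 and Mfap5 (the microfibril-associated glycoproteins MAGP1 and MAGP2), Mfap4, and Fbln1, Fbln2 and Fbln5 (fibulins). They were chosen by name, with earlier results of these data known. All 14 of their probes were taken, of which 13 were bright enough to be tested.

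Whole mouse lung RNA was hybridised to 12 one-colour Agilent arrays, 1 array per mouse. The 3 groups of 4 mice each were these: wild type (WT) kept in room air, WT given cigarette smoke, and mutants of Rora given the same smoke. Per the labels all mice were C57Bl/6 males of 12 weeks, and the exposure to smoke of 1R3F cigarettes ran for 4 months on 5 days a week, which is longer than the stated age. Rora codes for a transcription factor of the nuclear receptor family that recognises ROR response elements. The labels name neither the mutant allele nor a promoter or Cre line. Mutants without smoke were not analysed here, so an effect of genotype cannot be told apart from an effect of genotype that needs smoke.

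Levels are log2 units over the 75th percentile of the array's signal, so a value of 0 is a probe at that percentile. Levels of different probes are not comparable. The share of spots well above background was 70.1% to 74.8% over the arrays, and arrays of 1 group correlated at r = 0.9936 to 0.9963 across probes. The lung epithelium markers Sftpc, Sftpb, Scgb1a1 and the 5 others of that list were well above background in every group. The Rora probe averaged -0.92 ± 0.09 (SD, n = 4) in the mutants, below 1.27 ± 0.04 in WT smoke and 1.19 ± 0.04 in room air, as the genotype labels say. The sex labels did not hold. Xist, the RNA of the silenced X chromosome, stood at 4.13 ± 0.07 in room air against -5.30 ± 2.09 in WT smoke and -4.51 ± 1.26 in the mutants. Signal of Uty, Kdm5d and Ddx3y, all on the Y chromosome, was well above background on all 8 smoke arrays and on none of the 4 arrays of room air, and Eif2s3y, also on the Y, was 1.54 ± 0.07 in WT smoke against -6.84 ± 1.57 in room air. In comparisons with room air, smoke and this difference therefore cannot be told apart, since it covers the whole room air group. The comparison of mutant with WT smoke does not carry it.

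Rora mutant lungs exposed to smoke had more RNA of 4 of the 10 genes than WT lungs exposed to smoke. Mfap4 was 1.88-fold higher, Fbln1 1.72-fold, Eln 1.53-fold and Fbn1 1.29-fold. No member fell. Lox and Mfap2 were 1.36-fold and 1.14-fold higher and did not pass, and Fbn2, Fbln5, Fbln2 and Mfap5 did not pass either. Passing means a limma p under 0.05 for the gene's brightest probe after Benjamini-Hochberg adjustment across the 30191 probes tested. Of all genes, 5.91% passed in this comparison and 2.52% passed as higher, beside 4 of 10 members. The median difference of the members was 0.32 on the log2 scale, beside 0.01 over all genes. The members were chosen with earlier results of these data known, so these values are no test of the set. The 4 mutant arrays did not overlap the 4 WT smoke arrays for 5 members, the 4 that passed and Mfap2, and 13.6% of all genes did so. Under another background correction (normexp, which takes the raw spot and local background signals) none of the 10 passed in limma, and Eln, Fbn1, Fbln1 and Mfap4 were the 4 members with an unadjusted p under 0.05 there. The differences there were 0.52 for Eln, 0.33 for Fbn1, 0.67 for Fbln1 and 0.76 for Mfap4. That correction moved the median of all probes by 0.15, and net of this shift the differences were 0.37, 0.18, 0.52 and 0.61. The shift was not the same for all probes, since these 4 moved down and the dim Fbn2 and Fbln5 probes moved up. That setting left 26 of 30191 probes past the threshold. Whole lung RNA cannot tell more cells of a type from more RNA per cell.

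**Figure D1:**
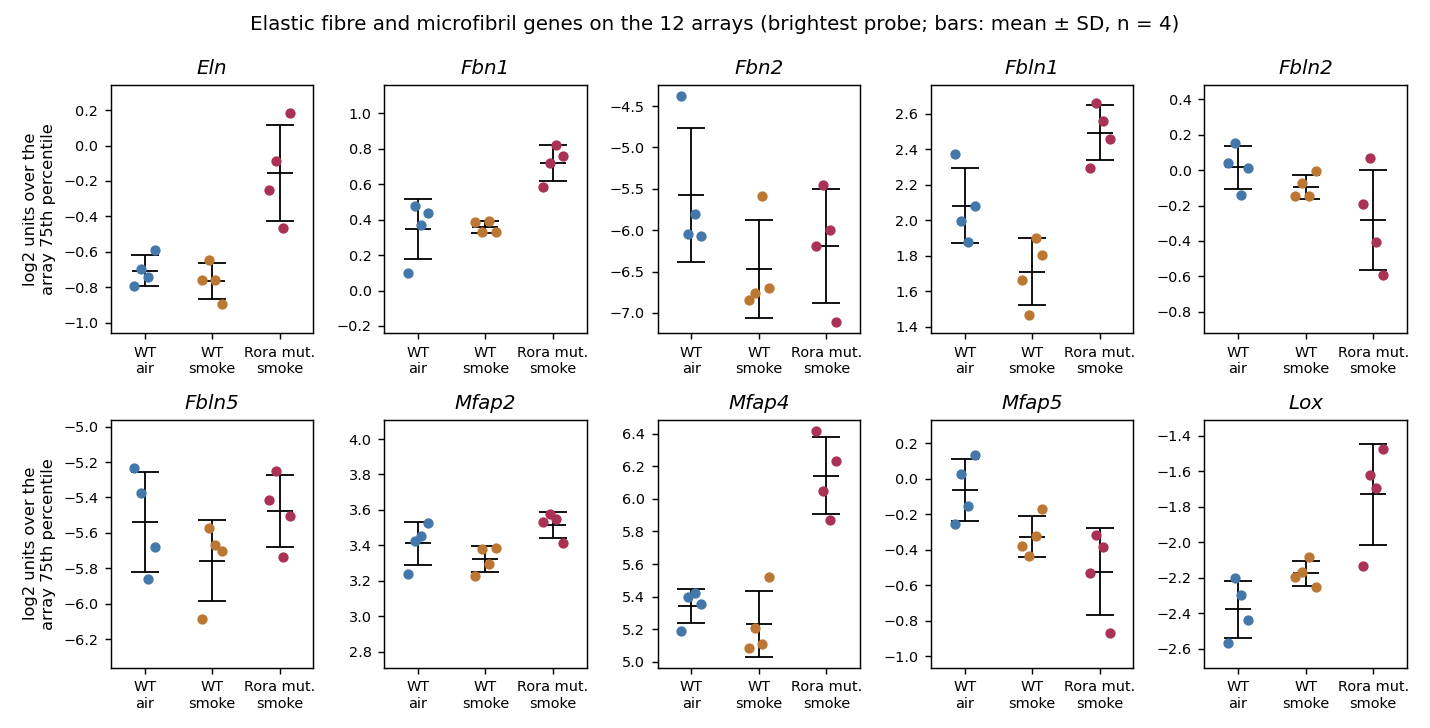
Level of each of the 10 genes on each array, on the log2 scale relative to that array's 75th percentile, by group; points are mice (n = 4 per group) and bars the mean ± SD. The mutant points of Eln, Fbn1, Fbln1 and Mfap4 lie above all WT smoke points, and the scales differ between panels.

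The core of the fibre is elastin. On its probe (A_52_P609972, chr5:134987886-134987945 of mouse build mm8, minus strand) the 4 mutant arrays read -0.25, -0.09, -0.46 and 0.18, and the WT smoke arrays -0.76, -0.65, -0.76 and -0.90. The room air arrays read -0.79, -0.70, -0.74 and -0.59. The lowest mutant mouse was above the highest mouse of both WT groups, and the WT groups overlapped each other. Eln was 0.61 ± 0.12 (SE) higher in mutant than in WT smoke (1.53-fold, 95% interval 1.28 to 1.82; limma adjusted p = 0.0135). The difference was 0.50, 0.68 and 0.62 within the 3 slides, each of which held at least 1 array of each group. WT smoke minus WT room air was -0.06 ± 0.12, with a 95% interval from -0.31 to 0.20. The order of the levels was mutant smoke, then WT room air and WT smoke, and the WT groups did not differ beyond their spread.

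Lox, the enzyme that starts elastin and collagen crosslinks, had levels of -2.13, -1.62, -1.69 and -1.47 in the mutants. In WT smoke they were -2.20, -2.17, -2.09 and -2.25, and in room air -2.57, -2.20, -2.30 and -2.44. Of the mutant mice 3 were above every WT mouse, and mutant 1 lay among the WT smoke values. Against WT smoke the difference of 0.45 ± 0.13 did not pass (limma adjusted p = 0.0629). Lox was 0.06, 0.59 and 0.50 higher within the slides. It passed with the slide as a block (limma adjusted p = 0.045), with the replicate number as a block (0.0481), with scaling on the median, and without mutant 1, and over all 22 alternatives its adjusted p ran from 0.00985 to 0.61. Against WT room air the mutants were 0.65 ± 0.13 higher without overlap (1.57-fold; limma adjusted p = 0.00578). WT smoke minus room air was 0.20 ± 0.13 and did not pass, so Lox levels were ordered mutant, WT smoke, room air, with the difference between mutant and room air as the step past the threshold.

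Fibrillin-1 is the main polymer of adult microfibrils, and fibrillin-2 belongs mainly to development. The brighter Fbn1 probe (A_51_P467224, chr2:124992432-124992491, mm8, minus strand) read 0.58, 0.72, 0.82 and 0.76 in the mutants, 0.39, 0.33, 0.39 and 0.33 in WT smoke, and 0.10, 0.48, 0.37 and 0.44 in room air. Every mutant value was above every WT value. The second probe, at chr2:124992959-124993018, had means of -1.59 ± 0.09 (SD) in mutant smoke, -2.05 ± 0.05 in WT smoke and -1.98 ± 0.05 in room air. Mutant minus WT smoke was 0.36 ± 0.08 (SE) on the brighter probe (limma adjusted p = 0.0286) and 0.46 ± 0.06 on the second (1.37-fold; 0.00142). The probes differed in how firmly they held. The brighter one missed the threshold in 8 of 22 alternatives, among them without mutant replicate 3 or 4 and without any 1 of the WT smoke replicates 1 to 4, with adjusted p between 0.00978 and 0.43 over all alternatives. The second missed it only with normexp. Within slides the brighter probe was 0.20, 0.39 and 0.40 higher and the second 0.44, 0.43 and 0.45. Neither probe passed in WT smoke against room air (0.01 ± 0.08 and -0.07 ± 0.06).

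Fbn2 was near background. Its probe was well above background on 4 room air, 2 WT smoke and 3 mutant arrays, with levels of -4.38, -6.04, -5.80 and -6.07 in room air, -6.84, -6.76, -5.58 and -6.70 in WT smoke, and -6.19, -5.45, -6.0 and -7.11 in the mutants. Room air replicate 1 and WT smoke replicate 3 stood apart from their groups, and the 3 groups overlapped. No comparison passed. The 95% interval of mutant minus WT smoke ran from -0.67 to 1.24, so differences of either sign fit the data at this signal.

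The microfibril-associated glycoproteins bind fibrillin and growth factors of the TGF-beta family. Mfap2 read 3.53, 3.58, 3.55 and 3.41 in the mutants, 3.23, 3.38, 3.30 and 3.38 in WT smoke, and 3.24, 3.42, 3.46 and 3.53 in room air. The mutant and WT smoke values did not overlap, but the gap was small, and the room air values spanned most of both. The difference between mutant and WT smoke was 0.20 ± 0.07 on this probe and 0.19 ± 0.07 on the second, and neither passed (limma adjusted p = 0.131 and 0.126). Within slides it was 0.30, 0.20 and 0.18.

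Mfap5 went the other way. It read -0.26, 0.03, -0.16 and 0.14 in room air, -0.38, -0.43, -0.32 and -0.17 in WT smoke, and -0.53, -0.32, -0.38 and -0.87 in the mutants. All mutant values were below all room air values, and WT smoke overlapped both. Mutant smoke minus room air was -0.46 ± 0.12 (SE), a ratio of 0.726 (95% interval 0.602 to 0.874; limma adjusted p = 0.0254). Each step within it missed the threshold, with -0.26 ± 0.12 for WT smoke minus room air and -0.20 ± 0.12 for mutant minus WT smoke. The call against room air was lost in 7 of 22 alternatives, including the replicate block (limma adjusted p = 0.0524) and the fits without room air replicate 2 or 4 or mutant replicate 1 or 4, and adjusted p over all of them ran from 0.0191 to 0.248.

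Mfap4 binds elastin and collagen at the fibre surface and had the largest difference of the 10 genes. Its probe (A_51_P195244, chr11:61304789-61304848, mm8, plus strand) read 6.42, 6.05, 5.87 and 6.23 in the mutants and 5.09, 5.21, 5.11 and 5.52 in WT smoke. Room air values were 5.19, 5.40, 5.42 and 5.36. The 4 mutants were above the 8 WT mice, and the WT groups overlapped. The difference between mutant and WT smoke was 0.91 ± 0.12 (1.88-fold, 95% interval 1.56 to 2.26; limma adjusted p = 0.00251), and that between mutant smoke and room air 0.80 ± 0.12 (1.74-fold; 0.00164). Within slides it was 1.33, 0.68 and 0.94 higher in the mutants than in WT smoke. WT smoke minus room air was -0.11 ± 0.12.

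The fibulins did not move alike. Fbln1, which joins elastin-containing fibres and basement membranes, read 2.29, 2.66, 2.56 and 2.46 in the mutants, 1.66, 1.47, 1.90 and 1.81 in WT smoke, and 2.38, 1.99, 1.88 and 2.08 in room air on its brighter probe (A_52_P588483, chr15:85113334-85113393, mm8, plus strand). Room air lay between the smoke groups and touched both. The second probe, which does not overlap the first, followed it over the 12 arrays (r = 0.98 as a description, with the groups in common). Mutant minus WT smoke was 0.78 ± 0.12 on the brighter probe (1.72-fold, 95% interval 1.43 to 2.07; limma adjusted p = 0.00561) and 0.80 ± 0.13 on the second (0.00576). Within slides the brighter probe was 0.63, 1.02 and 0.61 higher. Against room air the mutants were 0.41 ± 0.12 and 0.51 ± 0.13 higher (limma adjusted p = 0.0414 and 0.0185); the brighter probe's call was lost in 15 of 22 alternatives, the second's only with normexp. In WT smoke against room air Fbln1 was -0.37 ± 0.12 and -0.29 ± 0.13 and did not pass (limma adjusted p = 0.129 and 0.256).

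Fbln2, a fibulin of vessel walls and basement membranes, had no difference past the threshold. It read 0.04, 0.15, -0.14 and 0.01 in room air, -0.15, -0.07, -0.15 and -0.01 in WT smoke, and -0.19, 0.07, -0.41 and -0.59 in the mutants. The 3 groups overlapped. Mutant minus WT smoke was -0.19 ± 0.12 (95% interval -0.45 to 0.08). Mutant minus room air was -0.30 ± 0.12 (limma adjusted p = 0.118), and it passed only without mutant replicate 2, the highest mutant (-0.41; 0.0186).

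Fbln5, which is needed for elastic fibre assembly in mice, was dim on this array. Its tested probe ranged from -5.86 to -5.23 in room air, from -6.09 to -5.57 in WT smoke and from -5.73 to -5.25 in the mutants, with overlap of all groups. Its difference was 0.28 ± 0.15 (95% interval -0.06 to 0.62) between mutant and WT smoke, so a rise of the size seen for Fbn1 lies inside the interval. A second Fbln5 probe was well above background on no array and was not tested.

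**Figure D2:**
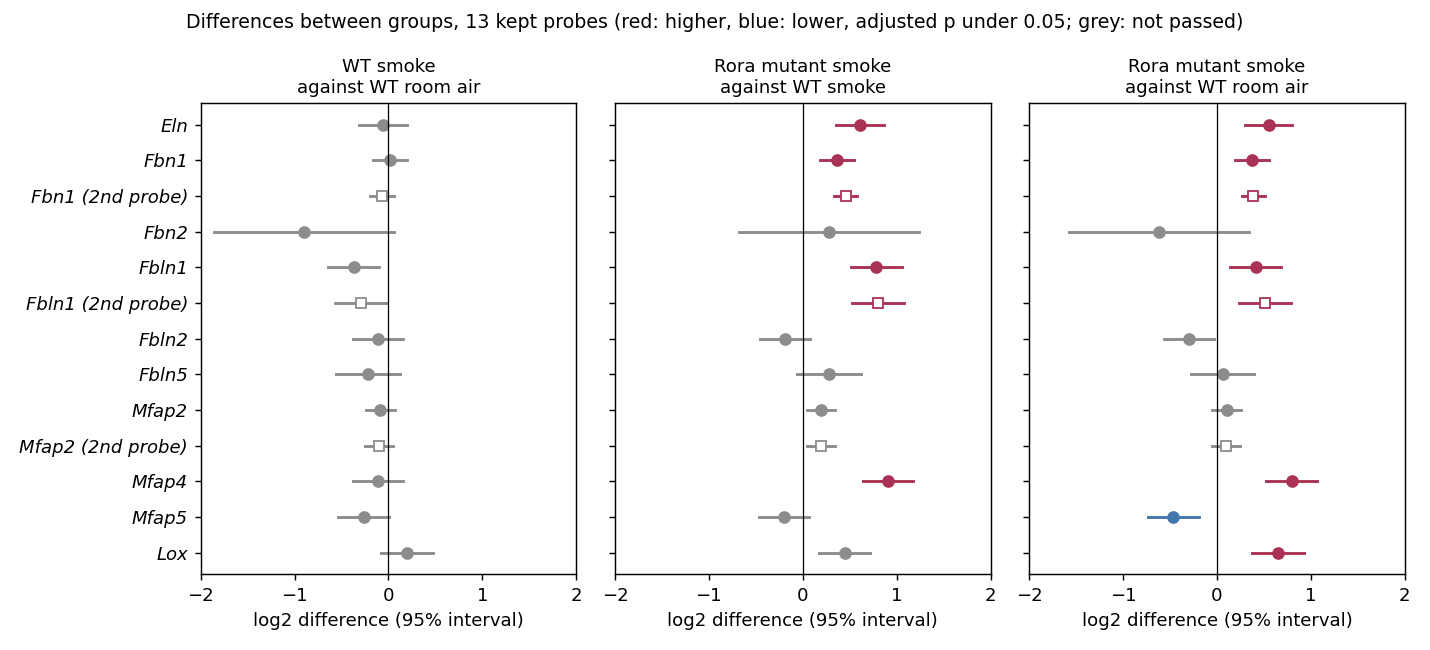
Differences between groups for the 13 tested probes, with 95% intervals from limma on the log2 scale; filled circles are each gene's brightest probe, open squares the second probe of Fbn1, Fbln1 and Mfap2. No probe passed in WT smoke against room air, and both probes of Fbn1 and Fbln1 passed in both mutant comparisons.

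The single values were also tested alone. Of the 13 probes 7 reached 0.0286 in the exact two-sided permutation test of mutant against WT smoke. After Benjamini-Hochberg adjustment over the 13 probes this was 0.0531. These 7 were Eln, Mfap4, both Fbn1 probes, both Fbln1 probes and the brighter Mfap2 probe. The value of 0.0286 is the smallest p that 4 against 4 arrays allow, and only groups without overlap reach it. The count of 7 therefore restates the lack of overlap and is not separate evidence. Of all probes 13.4% did not overlap. Lox stood at 0.0571.

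**Figure D3:**
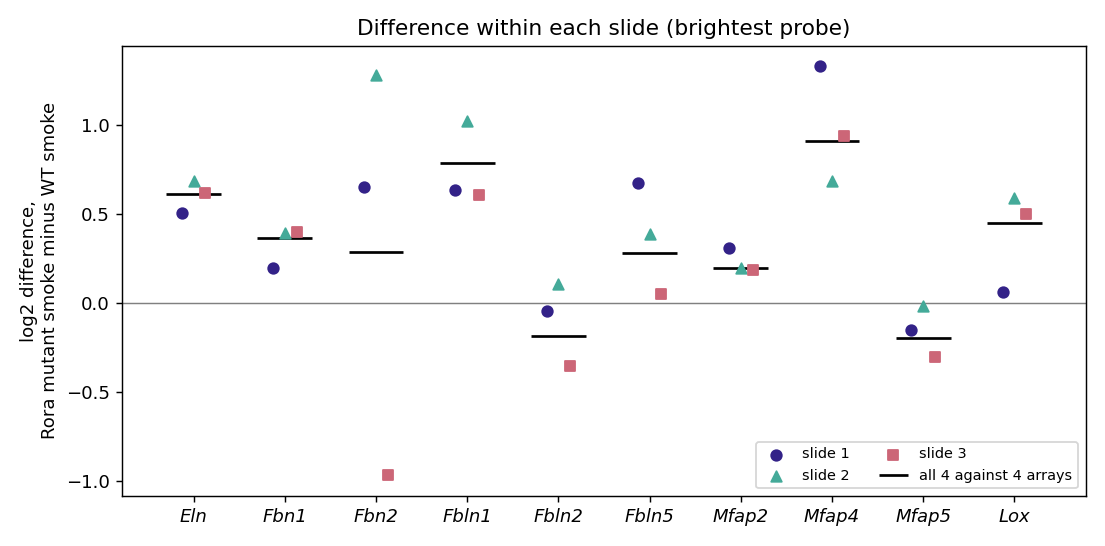
Difference between mutant smoke and WT smoke within each of the 3 slides for the 10 genes (log2, brightest probe), with the difference over all 4 against 4 arrays as a bar. Eln, Fbn1, Fbln1, Fbln5, Mfap2, Mfap4 and Lox were above 0 on all 3 slides, and Fbn2 ran from -0.97 to 1.28.

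In WT smoke against WT room air none of the 10 genes passed the threshold. This comparison carries the difference in Xist and Y-linked signal along with smoke, so its values are not those of smoke alone. Of all genes 4.38% passed in WT smoke against WT room air by limma (2.17% higher and 2.21% lower). Of the members 1 (Fbln1) had an unadjusted p under 0.05, none had groups without overlap (12.8% of all genes did), and 8 of 10 were lower by sign. Their median difference was -0.11, beside -0.01 over all genes. The lowest value was that of Fbn2 (-0.90 ± 0.44; limma adjusted p = 0.324), the near-background gene, and the highest that of Lox (0.20). For Eln, Fbn1 and Mfap4 the 95% intervals of WT smoke minus room air stayed within -0.38 and 0.20. None of the 3 intervals reached the size of that gene's difference between mutant and WT smoke.

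Between mutant smoke and WT room air 6 of the 10 genes passed, where 16.4% of all genes did (6.99% higher and 9.41% lower). Eln (0.55 ± 0.12), Fbn1 (0.37 ± 0.08), Fbln1, Mfap4 and Lox were higher and Mfap5 was lower. The members' median was 0.24, beside 0.00 over all genes. Groups did not overlap for 5 members (21.2% of all genes), which are Eln, Fbn1, Mfap4, Mfap5 and Lox. The 2 mutant comparisons share the 4 mutant arrays, so they are not separate evidence of a change in the mutants.

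RefSeq promoters of build GRCm38.p6 matched 5 of the 10 genes, namely Fbn1, Fbln1, Fbln2, Fbln5 and Mfap2. They were searched for the ROR half-site AGGTCA, which reads TGACCT on the other strand, since the mutated factor is a ROR. Of their 8 windows of 250 bases before a start site, each searched over its full length, 2 held it, both of Mfap2, while 14.02% of all 32851 such windows did. The windows of Fbn1 and Fbln1, which passed, and of Mfap2 are shown to let the letters be read beside the differences. The half-site is in capitals, and Fbn1 is cut to the bases outside the annotated gene.
Fbn1, chr2:125506486-125506688, minus strand: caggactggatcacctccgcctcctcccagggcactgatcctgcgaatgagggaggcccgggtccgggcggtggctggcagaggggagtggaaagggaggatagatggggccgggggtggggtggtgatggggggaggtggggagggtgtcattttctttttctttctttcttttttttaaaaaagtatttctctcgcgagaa
Fbln1, chr15:85205699-85205948, plus strand: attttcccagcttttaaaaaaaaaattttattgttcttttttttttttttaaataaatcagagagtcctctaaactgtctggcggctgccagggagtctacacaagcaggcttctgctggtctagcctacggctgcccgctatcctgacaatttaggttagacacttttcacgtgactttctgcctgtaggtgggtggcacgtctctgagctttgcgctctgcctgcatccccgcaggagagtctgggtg
Mfap2, chr4:141010174-141010423, plus strand: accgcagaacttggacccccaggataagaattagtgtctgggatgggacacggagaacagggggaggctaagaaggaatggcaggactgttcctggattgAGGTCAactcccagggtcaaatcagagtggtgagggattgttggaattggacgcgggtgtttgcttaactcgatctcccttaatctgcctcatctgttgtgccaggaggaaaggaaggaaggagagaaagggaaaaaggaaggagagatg
The half-site of Mfap2 begins 150 bases before the start, and Mfap2 did not pass in any comparison. A match of these letters is not a binding site, and their lack in the other windows says only that these letters are not there.

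Genes listed as partners in elastic fibre assembly were counted in the same way. The 26 tested partners were mainly crosslinking enzymes, latent TGF-beta binding proteins, EMILINs, fibulins, proteoglycans and ADAMTS-like proteins. Mfap1a, Mfap3 and Mfap3l were also on the list, and their part in assembly was not examined. Of the 26 none rose and 2 fell in mutant against WT smoke, where 3.39% of all genes fell. In limma 9 had an unadjusted p under 0.05. The share of all genes with an unadjusted p under 0.05 was not counted, here or for the members and other lists. Ltbp4, which binds latent TGF-beta and guides elastin deposition through Fbln5, was 0.28 ± 0.07 lower (5.62 against 5.90; limma adjusted p = 0.0311). Adamtsl5, a microfibril-binding ADAMTS-like protein, was 0.31 ± 0.08 lower on its brightest probe (limma adjusted p = 0.0416). Its 2 other tested probes did not match that probe in WT smoke against room air (0.11 to 0.31, beside -0.05). The calls of Ltbp4 and Adamtsl5 were lost in 11 and 15 of 22 alternatives. Neither remained under scaling on the median, or with the slide or the replicate number as a block. With median scaling and with the slide block 1 other partner passed as higher and none as lower, and 1 passed as higher and 1 as lower without mutant replicate 3. Loxl1, a lysyl oxidase-like enzyme of elastic fibre upkeep, differed by 0.35 ± 0.13 (limma adjusted p = 0.153), and Efemp2 (fibulin-4) by -0.02 ± 0.07. The median of the partners was 0.13. In WT smoke against room air 1 partner passed, the fibulin Fbln7 (-0.67 ± 0.17; limma adjusted p = 0.047), a call lost in 14 of 22 alternatives. Against room air 4 of the 26 partners passed in the mutants, Mfap3l as higher and Adamtsl5, Ltbp2 and Ltbp4 as lower, where 6.99% of all genes were higher and 9.41% lower. This split depended on the scaling, since with scaling on the median 4 partners were higher and 1 lower, with 2 of the 4 genes in common. The call of Ltbp4 was lost in 16 of 22 alternatives, those of Ltbp2 and Mfap3l in 7 each and that of Adamtsl5 only with normexp. Without room air replicate 1, room air replicate 4 or mutant replicate 4 a single partner passed, and without mutant replicate 1 there were 2.

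Proteases able to cut elastin changed in both directions. Of 10 tested in mutant against WT smoke 1 rose and 1 fell, where 2.52% of all genes rose and 3.39% fell. Ctss, the cathepsin S of macrophages, was 0.39 ± 0.07 higher (5.28 against 4.89; limma adjusted p = 0.0119). Mmp9, the gelatinase B, was 0.51 ± 0.09 lower (limma adjusted p = 0.00773), except with normexp, where its sign turned. Mmp12, the macrophage elastase, differed by 0.39 ± 0.20 (limma adjusted p = 0.292), Mmp2 by 0.52 ± 0.16 (0.0757) and Mmp14 by 0.32 ± 0.09 (0.053). None of these passed. Mmp12 was dim, at -5.72 in WT smoke. Among the 22 alternatives Mmp14 passed in 4 and Mmp2 in 2. In WT smoke against room air Ctsk, the cathepsin K, was 0.54 ± 0.12 higher (limma adjusted p = 0.0324, lost in 11 of 22 alternatives) and no other protease passed. In the mutants against room air 4 of the 10 were higher (Ctsk 0.84 ± 0.12, Ctss, Cela1 and Mmp14) and Mmp9 was lower, beside 6.99% and 9.41% of all genes. Of these Cela1 was dim, at -5.46 in room air.

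Of 9 tested inhibitors of elastin-cutting proteases 1 passed as lower in mutant against WT smoke, where 3.39% of all genes were lower. This was Timp2, a tissue inhibitor of metalloproteinases (-0.40 ± 0.11, limma adjusted p = 0.0475), and the call was lost in 19 of 22 alternatives. Timp1 (-0.28 ± 0.11) and Timp3 (-0.16 ± 0.11) did not pass. In WT smoke against room air no inhibitor passed by limma (0 with an unadjusted p under 0.05). Between mutant smoke and room air 1 of the 9 passed, Timp2 as lower (-0.43), where 9.41% of all genes were lower. That call was lost in 2 of 22 alternatives. Of 10 receptors that bind elastic fibre proteins or fragments 1 rose in mutant against WT smoke, where 2.52% of all genes rose. It was the epithelial integrin subunit Itgb6 (0.38 ± 0.09, limma adjusted p = 0.0358). Its other probes gave -0.04 to 0.25, and the call was lost in 11 of 22 alternatives. In WT smoke against room air Itgb3 (0.73 ± 0.10), Itgb6 (0.45 ± 0.09) and Lgals3 (0.36 ± 0.07) passed as higher, where 2.17% of all genes did. The second Itgb3 probe gave 0.22 there, and the other Itgb6 probes 0.23 to 0.32. Between mutant smoke and room air the same 3 receptors passed as higher, where 6.99% of all genes did.

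**Figure D4:**
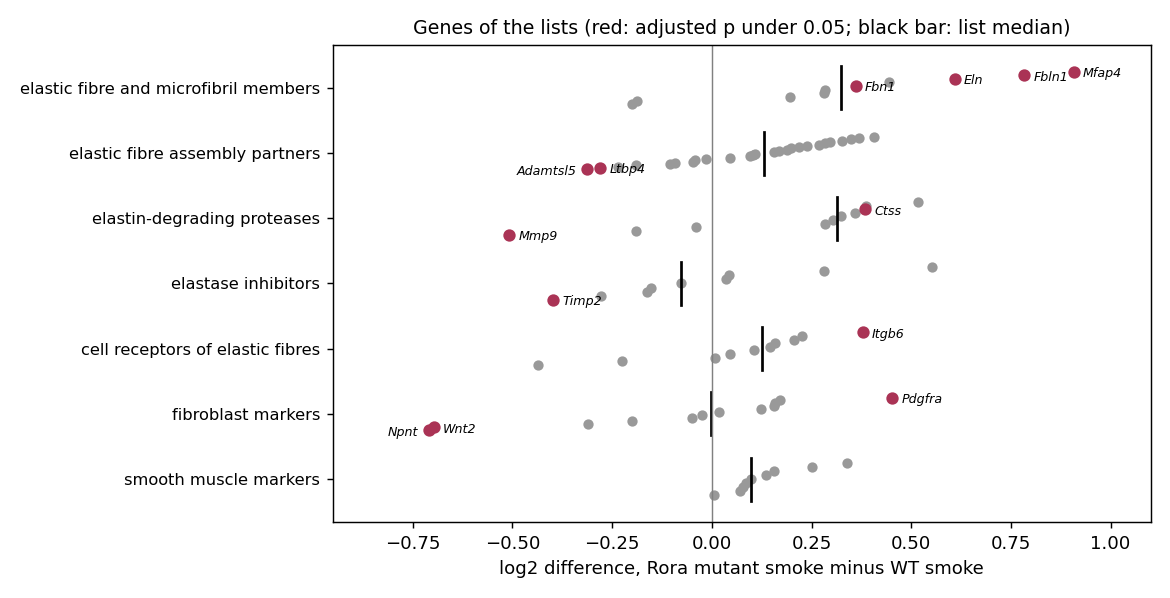
Difference between mutant smoke and WT smoke (log2, brightest probe) for the genes of each list; each point is a gene, red points passed, and black bars are list medians. The members' median is 0.32, that of the partner genes 0.13 and that of the fibroblast markers 0.00.

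Markers of the cells that make elastic fibres were set beside the members. Of 12 fibroblast markers 1 rose and 2 fell in mutant against WT smoke, where 2.52% of all genes rose and 3.39% fell. Pdgfra rose by 0.45 ± 0.08 (limma adjusted p = 0.012), and Wnt2 (-0.70 ± 0.12) and Npnt (-0.71 ± 0.14) fell. The summed linear level of the 12 markers was taken relative to the array's 75th percentile. It was 78.7 to 119 in the mutants, 92.4 to 99.1 in WT smoke and 96.9 to 120 in room air. The members' own sum was 80.4 to 106, 50.4 to 63.8 and 54.9 to 61.5 in the same order. Most of the members' sum is the signal of the Mfap4 probe. Each sum is weighted to the brightest probes of its list, so the sums do not compare the lists in content. Of 9 smooth muscle markers none passed in limma (2 had an unadjusted p under 0.05). All 9 were higher by sign with a median of 0.10, beside 0.01 over all genes. Their sum was 76.3 to 95.6 in the mutants and 66.0 to 86.8 in WT smoke. Of 8 endothelial markers only Kdr passed, as lower (-0.30 ± 0.08, lost in 14 of 22 alternatives), where 3.39% of all genes were lower. None of 7 mesothelial, 6 cartilage or 8 lung epithelium markers passed (2 of each list had an unadjusted p under 0.05 in limma).

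All 8 skeletal and all 8 cardiac muscle markers were also higher by sign in mutant against WT smoke. Of 8 skeletal muscle markers 4 rose in mutant against WT smoke, Myh1 (0.88 ± 0.20), Myh2 (0.73 ± 0.17), Ckm (0.57 ± 0.15) and Acta1 (0.47 ± 0.12), with a summed level of 3.03 to 3.82 in the mutants, 1.86 to 2.88 in WT smoke and 2.59 to 3.35 in room air. Of 8 cardiac muscle markers none passed by limma (5 with an unadjusted p under 0.05). All 8 were higher by sign (median 0.36, beside 0.01 over all genes). Their sums were 117 to 143 in the mutants, 77.1 to 111 in WT smoke and 106 to 143 in room air. The 4 skeletal muscle calls were lost in 7 to 12 of 21 or 22 alternatives each, and 2.52% of all genes passed as higher. The sums of both lists in the mutants overlapped those in room air. Between mutant smoke and room air 6 of the 8 cardiac markers were higher by sign, with a median of 0.12. The part of muscle or vessel content in the members' differences was not tested.

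Within groups the members varied with little in common. Over the 45 pairs of the 10 genes, deviations of the 12 arrays from their group means had a median correlation of 0.01, and 23 pairs were positive. The extremes were Mfap2 with Mfap5 (0.73) and Fbn1 with Fbn2 (-0.54). All points share the arrays and their scaling, and these values are a description.

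The genes whose level followed Eln most closely over the 12 arrays, among 14988 compared, were Chil3 (Pearson r = 0.96, Spearman rho = 0.83), Ear10, Chil4, Fam210b and Gltp, of which Chil3 and Chil4 encode chitinase-like proteins. For Mfap4 they were Itm2a (r = 0.96, rho = 0.94), Adra1b, Plat, Tmem116 and Fpr1. For Lox they were Cpeb2 (r = 0.94, rho = 0.85), Gla, Lamb1, Cd33 and Abcg1. The 3 lists share no gene. These correlations span the 3 groups and so hold the difference between groups as well as that between mice, and they are given with no test.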

How the data were processed

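The authors scanned single-colour (Cy3) arrays with Agilent Feature Extraction 9.5.3.1, per the file headers and the submitters' processing notes. The deposited processed signal of each array is a linear intensity, background-subtracted by the scanner software and not normalized between arrays, and the deposited flags for signal above background are other values coded 0 or 1. A further table deposited by the authors holds log2 intensity; its arrays share 1 median, as after quantile normalization, and it served as an alternative.

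Replicate spots were averaged (43379 non-control spots, 41174 probes), outlier spots left out. Each processed signal was divided by the 75th percentile of its array and then taken to log2. Probes well above background on at least 4 of 12 arrays and valued on at least 3 arrays per group were kept (30191, for 19824 genes). A gene is represented by its brightest kept probe, so a call of a listed gene is that of 1 probe. One limma 3.58.1 model (lmFit, eBayes; R 4.3.3, data.table, version 1.17.8) with a mean per group was fitted to all kept probes of the 12 arrays, with 9 residual degrees of freedom; tests were two-sided and adjusted by Benjamini-Hochberg over all kept probes. On simulated data of WT smoke against WT room air 200 of 30191 probes were changed, with independent noise between arrays and probes. There the model recovered 63% of probes changed by 0.5 and 87% of those changed by 1 on the log2 scale. These rates belong to that setting and need not hold for the comparisons made here. Figures used matplotlib 3.10.9 in Python 3.11.15. The number of arrays limits the precision. The labels call the arrays of a group biological replicates.

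The 12 arrays lay on 3 slides with all groups on each. Slide 1 held a second room air array, slide 2 a second WT smoke array and slide 3 a second mutant array, so a value within a slide rests on 1 or 2 mice a group. Alternatives were normexp background correction (offset 50), scaling on the median or quantiles, no or a stricter filter on dim probes, the slide or the replicate number as a block, 2 groups per fit, 1 probe per gene, the values of the authors, and each array left out.

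All members with all probes were named; of the other lists, counts and up to 6 genes with the smallest p; for Eln, Mfap4 and Lox, the 5 most like genes. Efemp2, Timp3 and Mmp12 were named outside this rule for their role. The members and lists were chosen with earlier results of these data known. Probe positions are the files' own on mm8; where in a gene each probe lies was not analysed here.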

Additional observations from a re-analysis of the deposited data

Results flagged for a closer look

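Over the 13 tested probes and 3 groups, 39 sets of 4 arrays were searched for an array far from its group by Dixon's criterion, and 2 were found, both for Fbn2. Chance gives about 1 in 20. The Fbn2 level of -4.38 in WT room air replicate 1 was above the other 3 arrays of that group, which ran from -6.07 to -5.80. That of -5.58 in WT smoke replicate 3 was above the other 3, which ran from -6.84 to -6.70. The probe was not well above background on the WT smoke arrays 1 and 4.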

How the results depend on the processing

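In the alternatives run, the count of members that passed stayed at 0 in WT smoke against room air. It was 3 to 5 in mutant against WT smoke (main 4) and 4 to 6 in mutant smoke against room air (main 6), except with normexp, which left 0 in both; leaving out single arrays gave 0 to 0, 3 to 5 and 4 to 6. No single member's call reversed; over the 282 values of single probes that the alternatives gave in each comparison, 13 calls were lost and 4 gained in mutant against WT smoke, and 28 and 1 against room air. Normexp shifted the median of all probes by -0.11, 0.15 and 0.09. It left 46, 26 and 161 probes past the threshold, against 1234, 1753 and 4925. With and without that shift subtracted, Eln, Fbn1, Fbln1 and Mfap4 remained higher in the mutants. The Mfap2 probes were at 0.14 and 0.29 in mutant against WT smoke, and at -0.01 and 0.14 net of the shift. Normexp also turned the sign of Mmp9 (0.0856 in mutant against WT smoke; limma adjusted p = 0.847) and Myh2 (0.19 in mutant smoke against room air; 0.951). Without a filter 738 and 927 passed in the first 2 comparisons, and with 2 groups per fit 1023 in mutant against WT smoke. Scaling on the median changed the split of higher and lower probes from 620 and 614 to 802 and 451, from 653 and 1100 to 940 and 861, and from 1990 and 2935 to 4378 and 2179. Assembly partners that passed (main 1, 2 and 4) were 0, 0 and 0 with normexp, 2 and 1 in the first 2 comparisons with median scaling (and 5 in the third, 4 higher and 1 lower), 0, 0 and 2 with no filter, 2 in the first with the stricter filter, 0 and 1 with the slide block, 0 and 0 with the replicate block, 2, 1 and 2 with 2 groups per fit, and 0 in the first with the authors' table; single arrays left out gave 0 to 2, 0 to 2 and 1 to 4. The causes were not tested. Deviations of same-numbered arrays correlated at -0.08 to 0.20, so the numbers were not taken to pair the mice; with the replicate block 0, 5 and 4 members passed. Fbn2 and Fbln5 were limited by signal near background.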
